A study of Mus musculus with 24 samples.

Results

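Untreated embryoid bodies (EBs), in which embryonic stem cells differentiate as clumps, were compared between day 8 and day 6 of culture across every gene that the array's annotation ties to a single symbol. The comparison rests on 6 of the series' 24 arrays, 3 of untreated EBs at day 8 and 3 of untreated EBs at day 6. By replicate number, 1 array of each day was taken to come from each of 3 independent experiments. Of 35556 probe sets in the deposited table, 21789 carry 1 symbol, and these represent 19938 genes. All cells were of the 46C line, mouse embryonic stem cells with a fluorescent reporter knocked into 1 Sox1 allele, so every group carries that allele and every result is of 1 line. Cells were first grown with LIF on gelatin, were kept as floating aggregates in ESC medium from day 3, were set down on culture dishes on day 7, and were moved to serum-free ITS medium on day 8. Plating therefore falls between the compared days and cannot be told apart from the passage of time, and the labels do not say whether the day 8 RNA was taken before or after the change of medium. Other arrays serve for comparison. They are EBs collected at day 8 and day 6 under 2 inhibitors of the phosphatase calcineurin, cyclosporin A at 1 ug/ml together with FK506 at 100 ng/ml, both present from day 3 to day 8, and untreated EBs collected at days 4 and 12, with 3 arrays each.

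EBs pass through stages that resemble the early mouse embryo. Cells of the epiblast type, which express Oct4 and still form epithelium, move through a primitive streak stage, lose E-cadherin and become mesoderm or endoderm. Mesoderm that receives bone morphogenetic protein (BMP) becomes lateral plate, heart, blood and extraembryonic mesoderm, visceral endoderm makes serum proteins and lipoproteins as the yolk sac does, and cells shielded from BMP become neural.

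All values are log2 signals computed by the robust multiarray average (RMA) method, a difference is day 8 minus day 6 on the log2 scale, and the words rose and fell are kept for genes for which limma's moderated test, fitted to all 24 arrays, gave an adjusted p under 0.05 over the 19938 genes. By that rule day 8 signals exceeded day 6 signals for 3544 genes (17.8% of those tested) and fell short of them for 3653 (18.3%). A gene list with shares near these shows only what genes at large show. Most changes were small. Their median was 0.35 among the risen and -0.38 among the fallen genes, and 186 genes rose and 127 fell by 2-fold or more, of which 27 rose and 1 fell by 4-fold or more. All 3 day 8 arrays lay above all 3 day 6 arrays in 3386 of the genes called higher, and below them in 3597 of those called lower, beside 5723 (28.7%) and 5264 (26.4%) of all genes. The median signal was 7.84 to 7.85 in the day 8 arrays and 7.85 to 7.86 in the day 6 arrays, and the first principal component of the 6 arrays, which separated the days, held 78.3% of the variance. Day 8 replicate 1 lay farthest from the day 6 arrays on that component, and without it 1940 genes were called higher and 2543 lower. Without day 6 replicate 2, the array at the other end of the component, 2223 were higher and 2604 lower. The changes were also uneven over signal level: the median difference was 0.10 and 0.17 in the lowest 2 of 5 equal classes of mean level and -0.11 and -0.07 in the highest 2, against 0.04, 0.07, -0.02 and -0.01 after the arrays were evened out by cyclic loess. In the main fit 14.3%, 29.5%, 23.3%, 12.4% and 9.38% of genes were called higher from the lowest to the highest class. In the same order 1.86%, 8.15%, 24.2%, 32.9% and 24.5% were called lower. Lists of dim or bright genes therefore have other shares beside them than genes at large. Cyclic loess left 3209 genes higher and 3108 lower, and 5503 of the 7197 calls were shared in direction. The table held signals without detection calls, which means that no dim signal can be said to exceed background, and a lower level in these bulk samples cannot be told apart from fewer cells of a type.

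**Figure D1:**
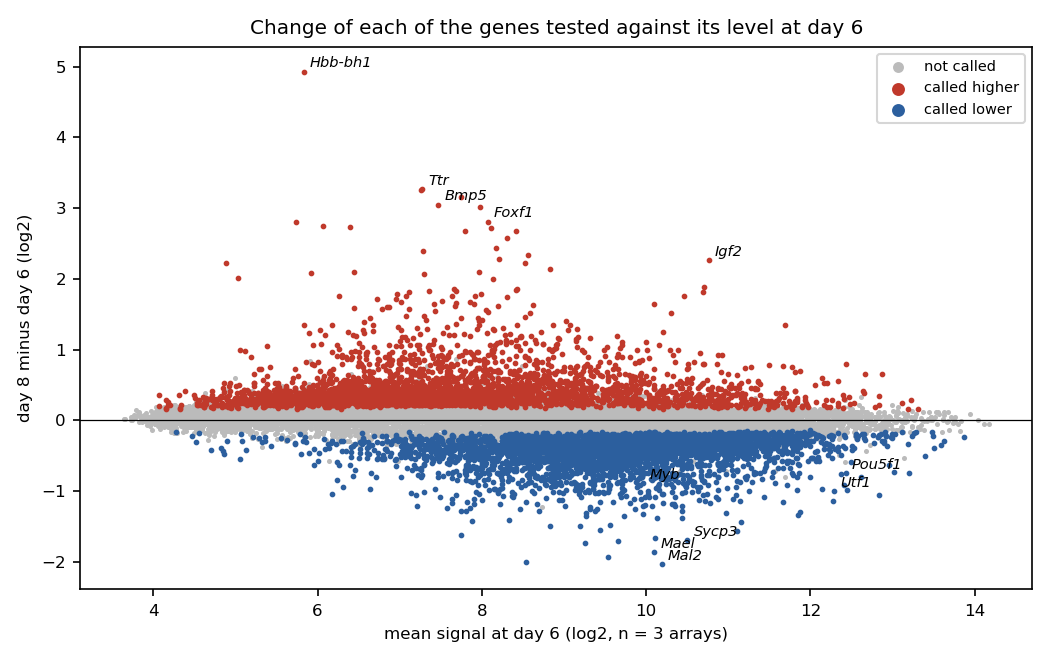
Day 8 minus day 6 difference (log2, vertical axis) of each of the 19938 genes against its mean signal at day 6 (log2, horizontal axis, n = 3 arrays), with genes called higher in red, called lower in blue and not called in grey. The largest rises, up to 4.93 for Hbb-bh1, start from signals under 9, whereas falls such as those of Mael and Mal2 start near 10 and go no lower than -2.04.

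The gene with the largest difference was an embryonic globin, and most erythroid genes rose. Hbb-bh1, an embryonic beta-like globin (probe set 10566268), read 12.05, 9.03 and 11.19 in day 8 replicates 1 to 3, against 5.87, 5.91 and 5.70 at day 6. Hba-x, the embryonic alpha-like globin, read 12.48, 9.05 and 11.14 at day 8, against 7.80, 7.82 and 7.61 at day 6. The day 6 arrays hardly differed, whereas the day 8 arrays spread over more than 3 log2 units, with replicate 1 highest and replicate 2 lowest, yet all above day 6. The differences were 4.93 (SE 0.49, adjusted p = 7.06e-07) for Hbb-bh1 and 3.15 for Hba-x, and they were 4.29 and 2.35 without day 8 replicate 1. Each SE and p-value of the main fit, here and below, rests on 1 spread pooled over all 8 groups. Where the day 8 arrays scatter widely, as for both globins, Ttr and Rbp4, it understates their spread. Since the day 6 signals of Hbb-bh1 lay among the lowest on the arrays, no fold is given for it. Near-identical globin copies can share probes, so the split between them is uncertain. Among 20 measured erythroid genes 16 were higher and 2 lower, with a median difference of 0.78 against 0.03 over all genes. The regulators of red cell formation rose by less than the globins, with Gata1 at 1.07, the adaptor Zfpm1 at 1.15, Gfi1b at 0.97 and Klf1 at 0.85. Runx1, needed for definitive blood stem cells, rose by 1.19, and Alas2, the first enzyme of haem synthesis in red cells, by 1.23. Hbb-y differed by 2.08 (adjusted p = 0.0117), but by 1.23 and without a call (0.114) when day 8 replicate 1 was left out. Myb, a factor of definitive progenitors, moved against the list and read 9.03, 9.08 and 9.09 at day 8, against 9.77, 10.28 and 9.83 at day 6 (difference -0.89). It and Tfrc, the transferrin receptor (-0.25), were the 2 lower members, and 1 was lower when any array but day 6 replicate 3 was left out.

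Endothelial genes moved less evenly. Of 22 measured members 10 were higher and 1 lower, with a median difference of 0.32. Cdh5, the cadherin of vessel walls, rose by 1.42 and the ETS factor Fli1 by 1.13. Kdr, the VEGF receptor that marks early mesoderm and vessels, rose by 1.01, although its day 8 and day 6 arrays overlapped, and its call ended without day 6 replicate 2 (adjusted p = 0.0878). Etv2, which acts before vessels form, differed by -0.51 (adjusted p = 0.072), and Eng, a TGF-beta co-receptor, fell by 0.52. Without day 6 replicate 2 or day 8 replicate 1 the count of risen members was 6 in either case, and without day 8 replicate 3 there were 2 lower.

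**Figure D2:**
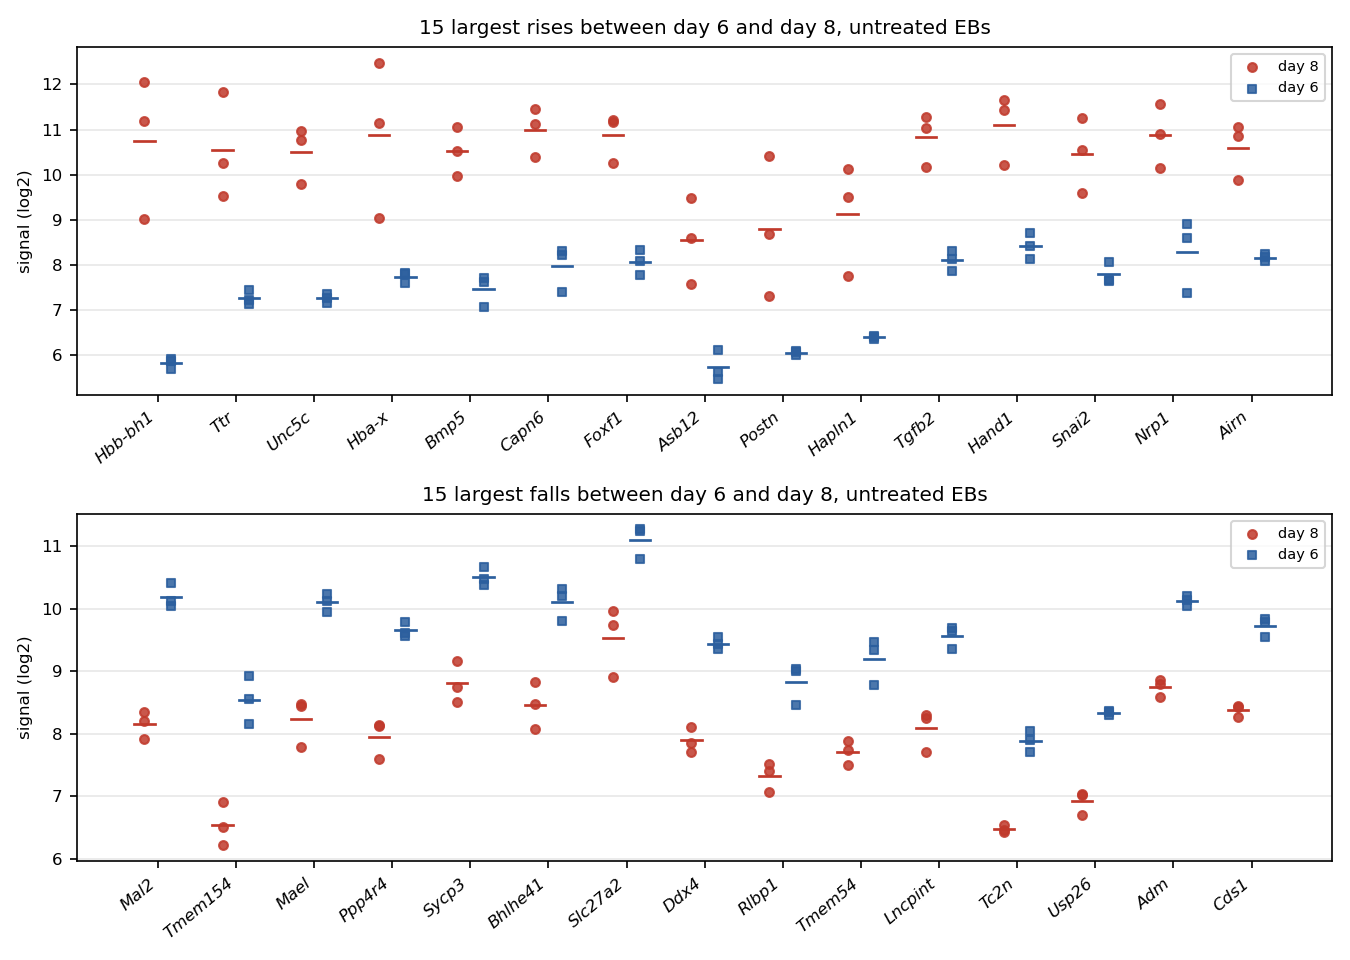
Signal (log2, vertical axis) of the 15 genes with the largest rises (top) and the 15 with the largest falls (bottom) among called genes whose groups do not overlap (clone names, small RNAs, receptor families and pseudogenes passed over), with 1 point per array, day 8 in red circles left of day 6 in blue squares, and a bar at each mean (n = 3). Day 8 arrays spread widely for Hbb-bh1, Hba-x and Postn and lie close together for falling genes such as Mal2 and Usp26.

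Genes of lateral plate mesoderm and the heart field rose almost as a block. Of 15 cardiac transcription factors 14 were higher and 0 lower (median 1.17), and of 18 lateral plate and allantois genes 16 were higher and 0 lower (median 1.13). Isl1, Hand1, Hand2 and Tbx20 belong to both lists. Msx1, Msx2, Gata3, Tbx3, Bmp4, Bmp5 and Bmp7 of the lateral plate list recur among the BMP targets or ligands below. The counts of these lists are therefore not independent of each other. Without any 1 array the counts were 14 cardiac factors and 14 to 17 lateral plate genes higher. Hand1, a helix-loop-helix factor of extraembryonic and lateral mesoderm, read 11.66, 10.21 and 11.43 at day 8, against 8.42, 8.13 and 8.71 at day 6 (difference 2.68, SE 0.30, adjusted p = 2.43e-06). Foxf1, a forkhead factor of lateral plate and allantois, read 11.22, 10.26 and 11.16 at day 8, against 8.09, 7.77 and 8.33 at day 6 (2.81, SE 0.27). For both genes the lowest day 8 array stood more than 1 unit above the highest day 6 array. The heart field factors Tbx20 (2.22), Hand2 (1.86), Isl1 (1.83), Mef2c (1.57) and Gata4 (1.17) rose too, while Nkx2-5, which marks committed heart progenitors, rose by only 0.57 and Irx4, a ventricular factor, differed by 0.12 (adjusted p = 0.38). Of 20 sarcomere and heart muscle genes 15 were higher and 0 lower (median 0.69). The light chain Myl4 rose by 1.62 and the troponin Tnnt2 by 1.45. The myosin Myh6 rose by 0.45. Actn2, a sarcomere crosslinker, was not called at -0.27 (adjusted p = 0.0848), nor was Nppa, a natriuretic peptide gene, at 0.23 (adjusted p = 0.137), and Myl7, an atrial light chain, missed it at 0.77 (adjusted p = 0.052, but 0.0388 after cyclic loess). Tbx4, an allantois and hindlimb factor, differed by 0.61 (adjusted p = 0.0508, but 0.0351 after cyclic loess).

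The BMP pathway was read from ligands to targets. BMPs signal through type I and type II receptors that phosphorylate Smad1, Smad5 and Smad9, and the Id genes and inhibitory Smads are their early targets. Of 13 ligand genes 8 were higher and 0 lower (median 0.43). Bmp5 (probe set 10587231) read 11.06, 9.98 and 10.52 at day 8, against 7.62, 7.08 and 7.72 at day 6. Bmp4 read 12.06, 11.44 and 11.93 at day 8, against 10.33, 10.02 and 10.53 at day 6 (difference 1.52, SE 0.16, adjusted p = 8.66e-07, or 2.86-fold). Bmp2 rose by 1.75. The groups of these 3 ligands were separated by 1 unit or nearly so, and in each of them day 8 replicate 1 was the highest array. Of 12 receptor and Smad genes 3 were higher and 1 lower (median 0.08), the shares of 25.0% and 8.33% lying beside 17.8% and 18.3% of all genes. After cyclic loess 5 were higher. Smad9 rose by 0.85, the endothelial receptor Acvrl1 by 0.55 and the type II receptor Bmpr2 by 0.37, the co-receptor Eng fell, and Bmpr1a (0.13, adjusted p = 0.0713, but 0.0103 after cyclic loess), Smad1 (0.13) and Smad5 (0.05) were not called. Of 20 target genes 17 were higher and 0 lower (median 0.90), and 14 to 17 were higher without any 1 array. Id2, an inhibitor of helix-loop-helix factors, read 12.45, 11.98 and 12.22 at day 8, against 10.49, 10.38 and 10.51 at day 6 (1.76, SE 0.13, adjusted p = 1.35e-07, or 3.38-fold). Msx2 rose by 1.74, Cdx2 by 1.42 and the inhibitory Smad6 by 1.22. Id1 rose by 0.60, a call that ended without day 6 replicate 2 (adjusted p = 0.0826) or day 8 replicate 1 (0.0511), and Id4 differed by 0.03 with overlapping groups. Of 16 measured antagonists 5 were higher and 0 lower, led by Fstl1 (0.80), Bmper (0.71, adjusted p = 0.0825 without day 6 replicate 2) and Nog (0.60), the secreted noggin. Without day 6 replicate 2 the 5 were 2, and without day 8 replicate 1 or 2 they were 3. Fst, follistatin, went the other way at -0.72 (adjusted p = 0.0606), and with the replicate number as a block it was called lower (adjusted p = 0.0387).

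Primitive streak genes, high at both days, did not move as a group. Of 21 measured members 4 were higher and 0 lower, with a median difference of -0.07, a share of higher genes close to that of all genes. Mixl1, a homeobox gene of the streak, read 10.16, 11.06 and 11.40 at day 8, against 12.11, 11.24 and 11.72 at day 6 (difference -0.81, SE 0.38, adjusted p = 0.0995), and its groups overlapped. Eomes (-0.33), Mesp1 (-0.11) and Cer1 (0.01) were not called either. The members that rose encode receptors and a secreted inhibitor found in mesoderm after the streak: Pdgfra (1.29), Aplnr (0.66, but adjusted p = 0.0825 without day 6 replicate 2) and the Wnt inhibitor Frzb (0.90), together with the ligand Wnt3a (0.32). Brachyury has no probe set with a single symbol here and was not analysed. In the Nodal pathway, which patterns the streak, 3 of 14 members were higher and 3 lower (21.4% each, near the 17.8% and 18.3% of all genes). The co-receptor gene Cfc1 rose by 1.01, although not without day 6 replicate 2 (adjusted p = 0.0531). The ligand Gdf3 fell by 0.78, whereas the falls of Nodal (-0.45) and its co-receptor Tdgf1 (-0.73) had adjusted p-values of 0.0458 and 0.0494 and were not called after cyclic loess (0.116 and 0.0609). The 3 lower members were 1 without day 6 replicate 1 or 3 or day 8 replicate 1.

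Many genes of the visceral endoderm and of endoderm at large rose. Of 24 measured serum protein and uptake genes 16 were higher and 1 lower (median 0.46), but only 5 were higher without day 8 replicate 1, 9 without day 6 replicate 3 and 10 without day 8 replicate 2. Ttr, the carrier of thyroid hormone, read 11.83, 9.54 and 10.25 at day 8, against 7.13, 7.23 and 7.45 at day 6. Rbp4, the retinol carrier, read 10.93, 8.83 and 9.57 at day 8, against 8.08, 7.83 and 8.06 at day 6 (difference 1.79, SE 0.37, adjusted p = 0.000889). In both genes day 8 replicate 1 exceeded the other day 8 arrays by more than 1 unit, and without it the rises were 2.63 and 1.21. The adaptor Dab2 rose by 0.90 and Afp, alpha-fetoprotein, by 0.47, while albumin (Alb, 0.19, adjusted p = 0.358) was not called. Lrp2, a large uptake receptor that neural epithelium also uses, differed the other way by -0.65, with overlapping groups and no call without day 6 replicate 2 or 3, day 8 replicate 1 or 3 or after cyclic loess. Of 12 measured endoderm transcription factors, several of which mesoderm also expresses, 8 were higher and 0 lower (median 0.61), among them Foxa1 (1.11), Gata6 (0.99), Sox7 (0.82) and Hnf4a (0.71), the last a nuclear receptor that drives liver-type genes. The letters GTTAAT, part of the site of the liver factor HNF1, were sought on both strands of promoter windows from 250 bases before to 50 after each start (RefSeq, GRCm38.p6). They were found in 7 of the 21 serum protein genes that have a window, and in 4 of the 14 that rose, against 8.24% of 27025 genes. Matches were thus no more frequent among the risen members than in the list. Several motifs were sought in all 44 lists, and GTTAAT was also in 4 of 9 cardiac transcription factors but in 0 of 16 erythroid genes. The windows of 3 risen members with a match are shown, with the matching letters in capitals (ATTAAC is GTTAAT on the other strand). They lie at chr15:6386498-6386797 on the plus strand for Dab2, chr3:83049814-83050113 on the minus strand for Fgb, a fibrinogen chain, and chr5:90490464-90490763 on the plus strand for Afp, and the matches begin 65, 29 and 105 bases before the start in that order.
Dab2: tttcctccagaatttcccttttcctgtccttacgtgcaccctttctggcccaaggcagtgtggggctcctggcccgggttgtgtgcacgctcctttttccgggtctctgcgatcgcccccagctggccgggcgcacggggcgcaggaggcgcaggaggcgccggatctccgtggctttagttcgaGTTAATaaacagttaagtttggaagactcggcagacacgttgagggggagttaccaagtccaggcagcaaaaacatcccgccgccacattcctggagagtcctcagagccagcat
Fgb: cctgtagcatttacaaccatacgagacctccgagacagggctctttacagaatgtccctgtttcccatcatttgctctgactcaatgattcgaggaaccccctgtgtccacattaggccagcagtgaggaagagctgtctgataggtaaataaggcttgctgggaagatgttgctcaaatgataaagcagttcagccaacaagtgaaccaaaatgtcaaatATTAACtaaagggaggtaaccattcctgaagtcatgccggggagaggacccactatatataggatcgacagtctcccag
Afp: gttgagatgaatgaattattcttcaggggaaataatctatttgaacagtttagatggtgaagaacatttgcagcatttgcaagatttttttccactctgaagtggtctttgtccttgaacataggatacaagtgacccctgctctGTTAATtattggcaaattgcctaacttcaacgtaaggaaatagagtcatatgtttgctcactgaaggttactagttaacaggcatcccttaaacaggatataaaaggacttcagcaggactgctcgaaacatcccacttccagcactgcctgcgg

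Pluripotency genes fell in part. Of 25 measured members of the core and naive list 7 were lower and 2 higher (median -0.36), and of 14 primed epiblast genes 7 were lower and 0 higher (median -0.48). The 28.0% of the core and naive list called lower stands beside 18.3% of all genes. Its median day 6 level was 10.01, and 32.9% and 24.5% of genes in the highest 2 of 5 level classes were called lower. The count of falls thus does not set the core and naive list apart from other bright genes. Its median difference did lie below the -0.11 and -0.07 of those classes. Pou5f1, the gene of Oct4, read 11.49, 11.90 and 11.65 at day 8, against 12.48, 12.46 and 12.35 at day 6 (difference -0.75, SE 0.24, adjusted p = 0.0194). All day 8 arrays lay below day 6, but the call ended without day 6 replicate 2 (adjusted p = 0.0555) or day 8 replicate 1 (0.0846). Nanog (-0.43, adjusted p = 0.101), Sox2 (-0.36, 0.213) and Esrrb (-0.39, 0.166) were not called in the fit of 24 arrays, although their groups did not overlap. When only the 6 arrays were fitted the core and naive list had 14 members lower. The firmest falls were of Dppa4 (-1.12) and Utf1 (-1.0), both chromatin-associated factors of stem cells, and of L1td1 (-0.94), an RNA-binding protein gene. Tbx3, a member that lateral mesoderm also expresses, rose by 1.08 and Klf4, a reprogramming factor, by 0.23, and the 2 were 1 without day 6 replicate 1 or day 8 replicate 1. Among primed genes the ligand Wnt8a read 8.21, 9.03 and 8.98 at day 8, against 9.95, 9.99 and 9.94 at day 6 (-1.22, SE 0.28, adjusted p = 0.00204), while Fgf5 (-0.63, 0.163) and Otx2 (-0.59, 0.187) were not called. The 7 lower primed genes were 3 without day 6 replicate 2 or 3, and 4 without day 8 replicate 1 or 3 and after cyclic loess. Of 15 measured genes of DNA methylation 5 were lower and 2 higher (33.3% and 13.3%). Their median day 6 level was 10.63, and the 33.3% stands beside the 32.9% and 24.5% of bright genes given above. The count of falls does not set this list apart from bright genes either. The cofactor Dnmt3l fell by 0.85, although not without day 6 replicate 2 (adjusted p = 0.0505) or day 8 replicate 3 (0.0588), and Gadd45b, a stress gene also tied to demethylation, fell by 1.0. The methyltransferase gene Dnmt3a fell by 0.34, and Dnmt3b by 0.58 with the call ending without day 6 replicate 2, day 6 replicate 3 or day 8 replicate 1. The 5 lower members were 3 without day 6 replicate 2 or 3 or day 8 replicate 1 or 3. Tet3, a methylcytosine oxidase gene, rose by 0.61 and Dnmt1, the maintenance enzyme gene, differed by 0.09 (adjusted p = 0.283, but 0.0464 after cyclic loess).

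Germline and meiosis genes, which embryonic stem cells express at low to moderate level without entering meiosis, were lower in most measured cases. Of 35 measured members 19 were lower and 4 higher (median -0.40), and 16 to 19 were lower without any 1 array. Promoter windows of 4 fallen members are shown first, chosen because each holds the same motif: the letters CACGTG, the E-box, read the same on both strands and are in capitals. The letters were present in 14 of the 31 members with a window, in 10 of the 18 that fell and in 0 of the 2 that rose, against 8.09% of 27025 genes (RefSeq, GRCm38.p6). The rest of the 14 were not called, and 2 risen members are too few to compare. The windows lie at chr1:166238695-166238994 on the minus strand for Mael, chr10:88459337-88459636 on the plus strand for Sycp3, chr13:112652261-112652560 on the minus strand for Ddx4 and chr5:138280259-138280558 on the plus strand for Stag3. The match begins 223 bases before the start in Mael, 64 and 43 in Sycp3, 29 in Ddx4 and 170 in Stag3.
Mael: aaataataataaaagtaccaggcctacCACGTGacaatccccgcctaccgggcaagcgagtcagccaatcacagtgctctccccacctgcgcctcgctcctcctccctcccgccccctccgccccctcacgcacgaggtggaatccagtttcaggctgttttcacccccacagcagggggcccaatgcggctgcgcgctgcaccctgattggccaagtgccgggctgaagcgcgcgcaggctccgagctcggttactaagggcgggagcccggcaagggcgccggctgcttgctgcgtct
Sycp3: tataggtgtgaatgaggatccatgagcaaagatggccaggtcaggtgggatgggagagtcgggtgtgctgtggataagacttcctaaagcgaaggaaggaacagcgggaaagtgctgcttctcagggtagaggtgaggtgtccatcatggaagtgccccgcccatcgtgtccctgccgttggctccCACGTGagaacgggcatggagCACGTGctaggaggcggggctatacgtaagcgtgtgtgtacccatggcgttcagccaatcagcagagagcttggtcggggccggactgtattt
Ddx4: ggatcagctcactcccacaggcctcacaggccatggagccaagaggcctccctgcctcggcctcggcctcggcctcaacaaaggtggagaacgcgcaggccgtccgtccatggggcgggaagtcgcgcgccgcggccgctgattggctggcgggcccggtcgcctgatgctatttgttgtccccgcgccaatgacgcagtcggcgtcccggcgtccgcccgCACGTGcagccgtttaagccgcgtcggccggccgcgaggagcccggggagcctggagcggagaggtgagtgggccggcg
Stag3: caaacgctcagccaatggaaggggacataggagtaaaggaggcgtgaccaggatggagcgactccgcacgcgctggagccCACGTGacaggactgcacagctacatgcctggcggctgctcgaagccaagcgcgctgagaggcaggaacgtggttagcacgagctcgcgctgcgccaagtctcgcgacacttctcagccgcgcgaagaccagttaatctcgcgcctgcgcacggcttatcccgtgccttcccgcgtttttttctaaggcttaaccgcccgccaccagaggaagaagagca

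Mael, a gene of the pathway that silences transposons in germ cells, read 8.44, 8.47 and 7.78 at day 8, against 10.12, 10.24 and 9.94 at day 6. Sycp3, part of the axis of meiotic chromosomes, read 8.51, 9.17 and 8.75 at day 8, against 10.38, 10.66 and 10.47 at day 6. Ddx4, the germ cell RNA helicase also called Vasa, read 7.85, 8.11 and 7.71 at day 8, against 9.35, 9.54 and 9.43 at day 6 (difference -1.55, SE 0.13, adjusted p = 1.77e-07, or 2.93-fold lower). In all 3 genes the groups were more than 1 unit apart, and the spread within either day was under 1 unit. The transposon defence gene Tdrd12 fell by 1.04, the recombinase Dmc1 by 0.95, the factor Sohlh2 by 0.87 and the meiotic cohesin Stag3 by 0.67. Usp26, a testis-expressed ubiquitin protease outside the list, fell by 1.41. The 5 germ cell markers, of which Ddx4 is 1, had a summed signal of 9.45 to 9.68 at day 8, against 10.15 to 10.28 at day 6. Besides Ddx4 they read Dazl at -0.23 (adjusted p = 0.214), Stra8 at 0.08, Tex101 at 0.04 and Nanos3 higher by 0.35, so 1 was lower and 1 higher. The 4 risen members were 2 without day 8 replicate 1 or replicate 2. Of the other 4 motifs searched in this list, GGCGCC was in 9 members against 13.4% of all genes, CACACCC in 5 against 9.05%, GTTAAT in 2 and AGATAA in 1 against 12.7%.

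Epithelial genes fell while mesenchymal and matrix genes rose. Of 25 measured genes of epithelial adhesion and polarity 18 were lower and 2 higher (median -0.54), and 15 to 17 were lower without any 1 array. Mal2, a carrier of apical membrane traffic (probe set 10424113), read 8.20, 8.34 and 7.92 at day 8, against 10.13, 10.41 and 10.04 at day 6, and was the only gene of the 19938 to be called lower by 4-fold. Cdh1, the gene of E-cadherin, read 11.53, 11.60 and 11.48 at day 8, against 12.03, 12.17 and 12.11 at day 6 (difference -0.57, SE 0.11, adjusted p = 0.000636, or 1.48-fold lower). Replicates of each day agreed within 0.2 units for Cdh1, less than the gap between the days. The trafficking gene Rab25 fell by 1.22, the polarity gene Crb3 by 1.02, the epithelial master factor Grhl2 by 0.89 and the splicing regulator Esrp1 by 0.80. The keratins Krt8 (0.79) and Krt18 (0.41) rose against the list, Krt8 reading 13.30, 13.17 and 13.19 at day 8, against 12.60, 12.25 and 12.45 at day 6. Without day 6 replicate 1 or 2 or day 8 replicate 1 the 2 risen members were 1. Of the 15 largest falls of named protein or long RNA genes, Mal2 alone belonged to this list. The others included the membrane proteins Tmem154 (-2.0) and Tmem54 (-1.49), the lipid enzyme Cds1 (-1.35), Tc2n (-1.42) and the germline genes described above.

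Of 16 genes of the epithelial to mesenchymal transition (EMT) and mesenchymal adhesion 12 were higher and 0 lower (median 0.64), and 10 to 12 were higher without any 1 array. Snai2, a repressor of E-cadherin, read 11.26, 9.59 and 10.54 at day 8, against 8.07, 7.65 and 7.66 at day 6 (difference 2.67, SE 0.27, or 6.36-fold). Zeb1, another such repressor, read 10.12, 9.70 and 10.12 at day 8, against 8.66, 8.32 and 8.59 at day 6 (1.46, SE 0.15, adjusted p = 1e-06). Both were separated by more than 1 unit, with day 8 replicate 2 the lowest of its group. Snai1, which acts at the streak, differed by 0.12 (adjusted p = 0.495) and Twist1 by 0.31 (0.335). The cadherins Cdh11 (1.25) and Cdh2 (0.75) and the intermediate filament vimentin (Vim, 0.65) rose. Of 22 collagen genes 18 were higher and 0 lower (median 0.53), with Col1a1 at 1.17 and the basement membrane pair Col4a1 and Col4a2 at 0.87 each. Col18a1 differed by 0.04. Of 20 other matrix genes 11 were higher and 3 lower (7 higher without day 8 replicate 1). Fibrillin Fbn2 rose by 2.0, the proteoglycan Vcan by 1.65, the laminin Lama4 by 1.60 and tenascin Tnc by 1.47, while Lama5 (-0.53), Nid2 (-0.55) and Efemp1 (-0.91) fell. Hapln1, which links hyaluronan to versican, read 10.12, 7.76 and 9.51 at day 8, against 6.43, 6.4 and 6.37 at day 6. Tgfb2, a ligand that drives heart cushion EMT, read 11.29, 10.17 and 11.03 at day 8, against 8.32, 7.87 and 8.14 at day 6. Integrin and focal adhesion genes changed less, with 5 of 21 higher (23.8%, beside 17.8% of all genes) and 0 lower (1 lower with the replicate number as a block). After cyclic loess 9 were higher. Itgb1, the shared beta chain, stood at -0.01. Of 21 genes of mesenchyme and smooth muscle 10 were higher and 2 lower, with Postn at 2.74 (1.94 without day 8 replicate 1), smooth muscle actin Acta2 at 1.82 and Thy1 at -0.85, and 1 lower without day 6 replicate 2 or day 8 replicate 1 or 3. Of 20 YAP and SRF targets 7 were higher and 2 lower, with 4 higher without day 6 replicate 2 or day 8 replicate 1 and 0 or 1 lower without either of these or day 8 replicate 3 (median 0.04).

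**Figure D3:**
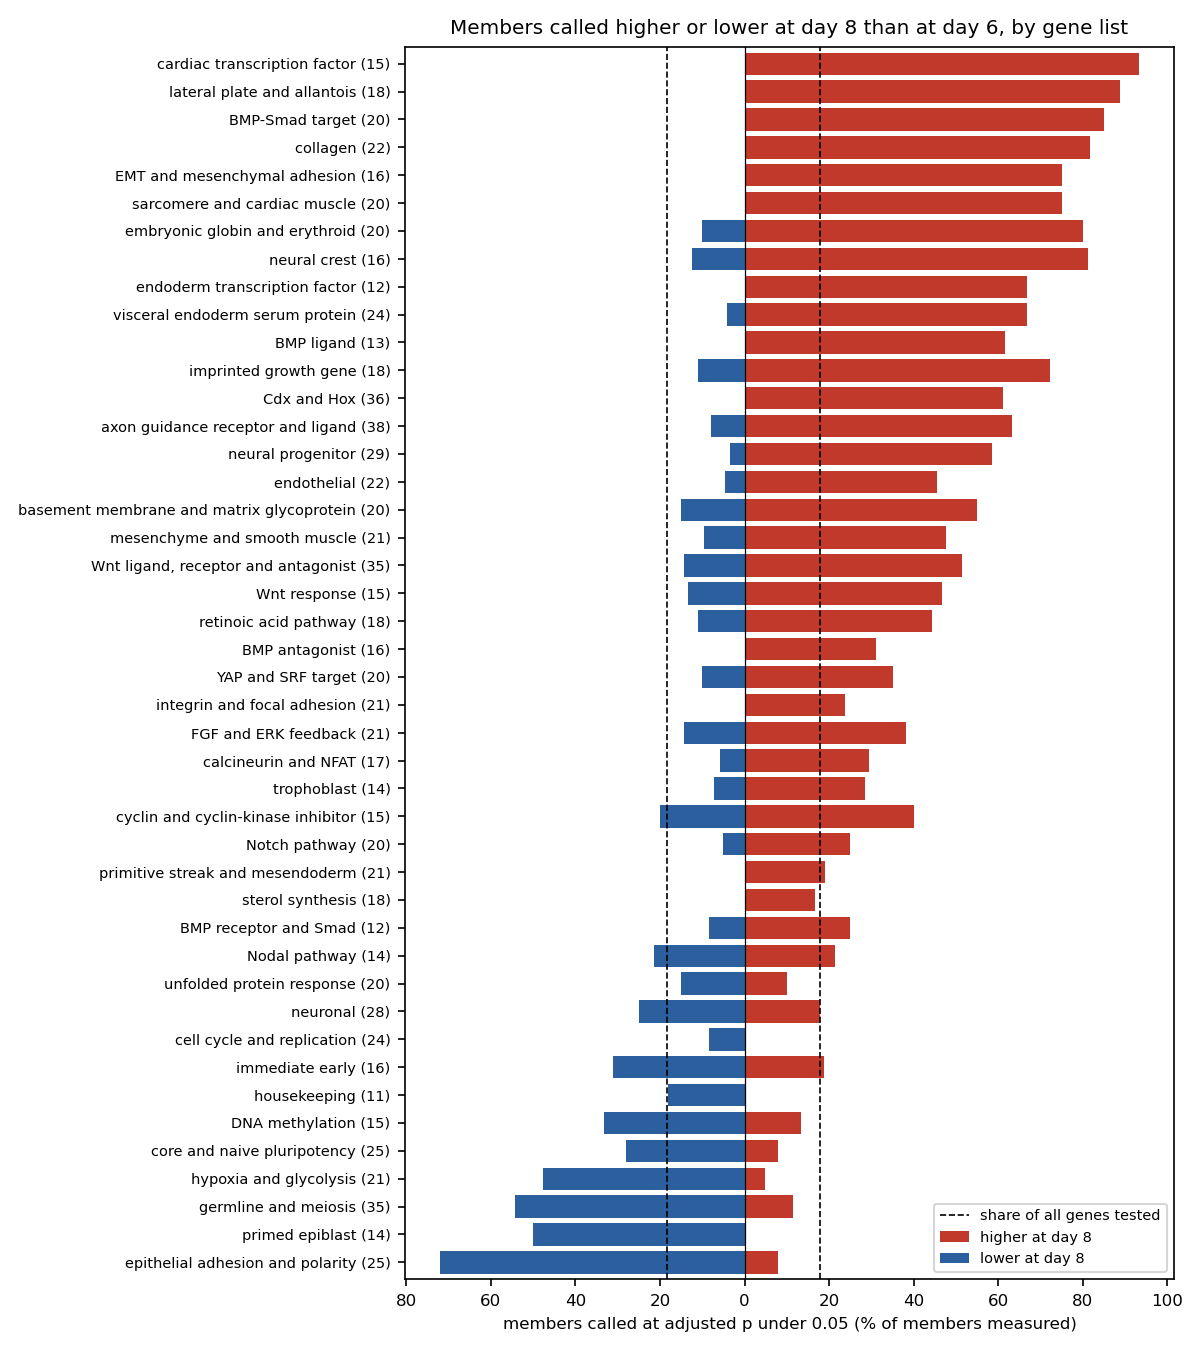
Share of the measured members of each of 44 gene lists (member count in brackets) called higher (red, right) or lower (blue, left) at day 8 than at day 6, in % of members. Dashed lines mark the 17.8% of all genes called higher and the 18.3% called lower. Cardiac, lateral plate and BMP target lists, which share members, lie farthest to the right and the epithelial list farthest to the left.

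Neural progenitor genes rose modestly and neuronal genes did not. Of 29 measured progenitor genes 17 were higher and 1 lower (median 0.44), with 13 to 17 higher without any 1 array. Sox1, the earliest neural marker, read 8.83, 8.92 and 8.87 at day 8, against 8.37, 8.37 and 8.4 at day 6 (difference 0.49, SE 0.09, adjusted p = 0.000197, or 1.41-fold). Zic1, a zinc finger factor of the dorsal neural plate, read 7.40, 7.67 and 7.81 at day 8, against 6.44, 6.28 and 6.39 at day 6 (1.25, SE 0.17). Unlike the blood and mesoderm genes, these had day 8 replicate 1 as the lowest of its group. Lhx2 (0.91) and Pax3 (0.90), of the anterior and dorsal neural tube, rose as well, while Pax6 (0.34, adjusted p = 0.0928) was not called and Nes, nestin, moved against the list by -0.64 (the 1 lower member, not called without day 8 replicate 1, adjusted p = 0.0508). Of 28 neuronal genes 5 were higher and 7 lower (17.9% and 25.0%, beside 17.8% and 18.3% of all genes, median 0.02). Neurod1, a neuronal differentiation factor, read 6.30, 6.10 and 5.95 at day 8, against 6.85, 7.41 and 7.17 at day 6 (-1.03, SE 0.21). The RNA-binding Elavl3 fell by 0.79, the neurofilament Nefl by 0.67 and the microtubule gene Map2 by 0.56. Isl1, which heart progenitors also express, led the rises of this list at 1.83. Without day 6 replicate 2 the lower members were 4 and the higher 3, and without day 8 replicate 2 the higher were 3.

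Neural crest genes rose in 13 of 16 cases and fell in 2 (median 0.49, 1 lower without day 6 replicate 2 or day 8 replicate 1 or 3), with Sox9 (0.96) and the endothelin receptor Ednrb (0.92) among them. Snai2, Msx1 and Pax3 of that list also belong to the mesodermal or neural lists. The markers Sox10 (0.34) and Tfap2a (0.54) rose, and Foxd3, which early epiblast shares, fell by 0.57. Axon guidance genes, many of which vessels and mesenchyme use too, were higher in 24 of 38 cases and lower in 3 (median 0.42), with 17 to 22 higher without any 1 array. Unc5c, a netrin receptor (probe set 10496519), read 10.97, 9.79 and 10.77 at day 8, against 7.26, 7.17 and 7.35 at day 6. Nrp1, a receptor for semaphorins and VEGF, read 11.57, 10.15 and 10.90 at day 8, against 8.92, 7.39 and 8.59 at day 6 (difference 2.58, SE 0.34, adjusted p = 1.32e-05). The replicates of Nrp1 kept the same order at both days, with replicate 1 highest and replicate 2 lowest. Robo2 rose by 1.72 and Sema3a by 1.65, whereas Sema3c, a related ligand, read 7.73, 8.53 and 8.03 at day 8, against 8.96, 9.67 and 9.49 at day 6 (-1.28, SE 0.20, adjusted p = 8.48e-05).

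Patterning genes followed. Of 36 measured Cdx and Hox genes, which set position along the body axis, 22 were higher and 0 lower (median 0.41), but 13 without day 8 replicate 1 and 16 after cyclic loess. Their median day 6 level was 6.63. Of all genes in the second lowest of 5 level classes 29.5% were higher and 8.15% lower (median 0.17). Cdx2 read 9.61, 8.85 and 9.80 at day 8, against 8.35, 7.73 and 7.92 at day 6. Hoxb2 rose by 1.2, Hoxc8 by 1.12 and Hoxd8 by 0.96, and the groups of these Hox genes did not overlap. Of 15 Wnt response genes 7 were higher and 2 lower, with the feedback inhibitor Apcdd1 at 1.52 and the stem cell receptor Lgr5 at 1.13, while Axin2, the most general target, differed by 0.13 (adjusted p = 0.346). The 2 lower members were 0 or 1 without any 1 of the arrays but day 8 replicate 3. Of 35 Wnt ligands, receptors and antagonists 18 were higher and 5 lower, led by the non-canonical ligand Wnt5a (1.28) and by the falls of Wnt8a and of the secreted inhibitors Sfrp4 (-0.92) and Sfrp2 (-0.81). Without day 6 replicate 2 the lower members were 3. In the FGF list 8 of 21 were higher and 3 lower, with Fgf15 at 1.10 and Fgf4, the ligand of stem cells, at -0.71, and with 1 lower when day 6 replicate 2 or day 8 replicate 1 was left out. Retinoic acid genes were higher in 8 of 18 cases, including the receptor Rarb (1.07) and the synthetic enzyme Aldh1a2 (0.90), and 2 were lower (1 without day 6 replicate 2), with the retinal reductase gene Dhrs3 at -0.75. Of the 20 Notch genes 5 were higher and 1 lower (25.0% and 5.0%, beside 17.8% and 18.3% of all genes). The target Hey2 rose by 0.99 and the ligand Jag2 fell by 0.85, and the risen members were 3 without day 6 replicate 2 and 2 without day 6 replicate 3 or day 8 replicate 1.

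Imprinted growth genes rose in 13 of 18 measured cases and fell in 2 (median 0.65, 1 lower without day 6 replicate 2 or 3 or day 8 replicate 1 or 2). Igf2, the fetal growth factor, read 13.36, 12.63 and 13.11 at day 8, against 10.83, 10.41 and 11.04 at day 6 (difference 2.27, SE 0.22, adjusted p = 6.44e-07, or 4.84-fold). Dlk1 rose by 2.14 and Mest by 1.35, while Ascl2, which trophoblast needs, fell by 0.61. Airn, the noncoding RNA that silences a paternal gene cluster, was not a member of the list and rose by 2.43. Few cell division genes were called. Of 24 genes of the cell cycle and replication 0 were higher and 2 lower (median -0.03), where 1 was higher with the replicate number as a block and 3 after cyclic loess, and 9234 of all genes had an unadjusted p under 0.05. The 2 were the spindle checkpoint kinase Bub1 (-0.37) and Birc5 (-0.28). Among cyclins and their inhibitors Ccnd2 rose by 0.92 and the pocket protein Rbl2 fell by 0.66, with 6 of 15 higher, or 3 without day 8 replicate 1, and 3 lower.

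Hypoxia and glycolysis genes fell in 10 of 21 measured cases and rose in 1, Hk1 at 0.24, which was not called without any 1 array other than day 8 replicate 2 (median -0.29), and 7 to 10 were lower without any 1 array. Aldoc, an aldolase, read 11.01, 11.08 and 10.99 at day 8, against 11.86, 11.96 and 11.67 at day 6 (difference -0.80, SE 0.16, adjusted p = 0.000544). Ddit4, an inhibitor of mTOR that hypoxia induces, fell by 0.76 and Pdk1, which keeps pyruvate out of the mitochondria, by 0.68. Vegfa (0.13), Slc2a1 (0.05) and Ldha (-0.05) were not called. Adm, adrenomedullin, which hypoxia also induces but which was not in the list, fell by 1.38. Of 20 genes of the unfolded protein response 2 were higher and 3 lower, and the fall of Ddit3, the stress factor CHOP, by 1.09 was the largest of these. The 2 higher were 0 without day 6 replicate 1 or day 8 replicate 1 and 1 without day 8 replicate 2. Of 16 immediate early genes 5 were lower (31.2%) and 3 higher (18.8%), with Ier3 at -1.26, and 3 were lower without day 6 replicate 2 or 3 or day 8 replicate 1. Of 18 sterol synthesis genes 3 were higher, a share of 16.7% near that of all genes, and 0 lower. After cyclic loess 6 of them were higher. Of 11 housekeeping genes 0 were higher and 2 lower (18.2%, beside 18.3% of all genes). The calls of Gusb (-0.19) and Sdha (-0.15) ended after cyclic loess and without day 6 replicate 2 or 3 or day 8 replicate 1 or 2. In the calcineurin and NFAT list 5 of 17 were higher (29.4%) and 1 lower (5.88%). The higher were 1 to 3 without any array other than day 8 replicate 2, and the lower was 0 without day 6 replicate 2 or day 8 replicate 3. The catalytic subunit Ppp3ca rose by 0.35, and Nfatc1 by 0.31 with overlapping groups and no call without day 8 replicate 1 (adjusted p = 0.0959).

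Markers of cell types that EBs or their culture could hold were summed per array. Most of them, including every blood and pluripotent marker, belong to the lists above and were read from the same arrays. Their sums therefore restate those results and are no independent check, and the brightest markers weigh most in them. Blood markers were higher in 4 of 4 measured cases, with a summed signal of 10.51 to 13.38 at day 8, against 9.01 to 9.18 at day 6. Visceral endoderm markers were higher in 5 of 5, at 10.75 to 12.21, against 9.68 to 9.77 at day 6. In both the lowest day 8 array lay above all day 6 arrays. Cardiac muscle sums were also higher (11.66 to 12.68, against 11.26 to 11.32). Endothelial sums overlapped (10.88 to 11.72, against 10.71 to 11.11), and so did neural sums (10.43 to 10.6, against 10.45 to 10.67). Primitive streak sums overlapped too (11.87 to 12.76, against 12.52 to 13.17). Lower at day 8 were the pluripotent (13.39 to 13.78, against 14.0 to 14.09) and primed epiblast sums (12.63 to 13.32, against 13.46 to 13.69). Fibroblast markers, which feeder cells would carry, summed to 10.39 to 11.54 at day 8, against 10.21 to 10.37 at day 6, with Postn and Col1a1 higher, Thy1 lower, and Dcn (-0.41) and Lum (0.60) not called. Macrophage markers summed to 10.10 to 10.15 at day 8, against 10.83 to 11.10 at day 6, with 1 marker lower, Cd68 of lysosomes at -1.17, and 1 higher, the Fc receptor Fcgr1 at 0.25 (median difference 0.18). Ptprc, which all white cells carry, differed by 0.18 (adjusted p = 0.21). Of 5 skeletal muscle markers 3 were higher by 0.22 to 0.42. Trophoblast markers summed to 8.43 to 8.49 at day 8, against 8.67 to 9.01 at day 6, although Plac1, a placental gene, rose by 2.10. What these markers contributed to the other lists was not tested.

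Day 8 was set beside the whole untreated course. Set against the mean of days 6 and 12, the day 8 signal was higher for 2333 genes (11.7% of all) and lower for 2528 (12.7%), and in 980 and 933 of them every day 8 array lay beyond every array of both neighbouring days. Some genes stood at day 12 near their day 8 level. Hbb-bh1 averaged 5.66, 5.83, 10.76 and 10.81 at days 4, 6, 8 and 12, and Foxf1 averaged 8.05, 8.07, 10.88 and 10.77. Other genes were higher at day 8 than on either side. Cfc1, the Nodal co-receptor gene, averaged 7.38, 8.82, 9.83 and 7.26 at days 4, 6, 8 and 12, Msx2 averaged 7.44, 8.31, 10.05 and 8.80, and the protease Mmp9 averaged 8.06, 8.41, 9.55 and 7.69. These genes stood out at day 8 against both sides, and Spink1, Cpm and Plac1 were the others with the largest such differences. Without day 8 replicate 1 the counts were 941 and 1560, and without day 8 replicate 2 there were 1223 higher. The 6 named genes furthest below the mean of days 6 and 12 were Nrn1, Neurod1, Lox, Map2, Ebf1 and Sema3c. Their day 8 arrays lay below every array of both days. Nrn1, which promotes neurite growth, averaged 6.90, 6.79, 6.46 and 10.17 at days 4, 6, 8 and 12, Neurod1 averaged 8.18, 7.14, 6.12 and 8.93, and Lox, which crosslinks collagen, averaged 7.07, 7.05, 6.62 and 9.07. Nrn1 and Neurod1 were at their lowest at day 8 and at their highest at day 12. For Nrn1 and Lox most of the difference came from the rise between days 8 and 12, with day 8 only slightly below day 6. Pou5f1 went on falling and averaged 12.75, 12.43, 11.68 and 8.04 over the 4 days.

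**Figure D4:**
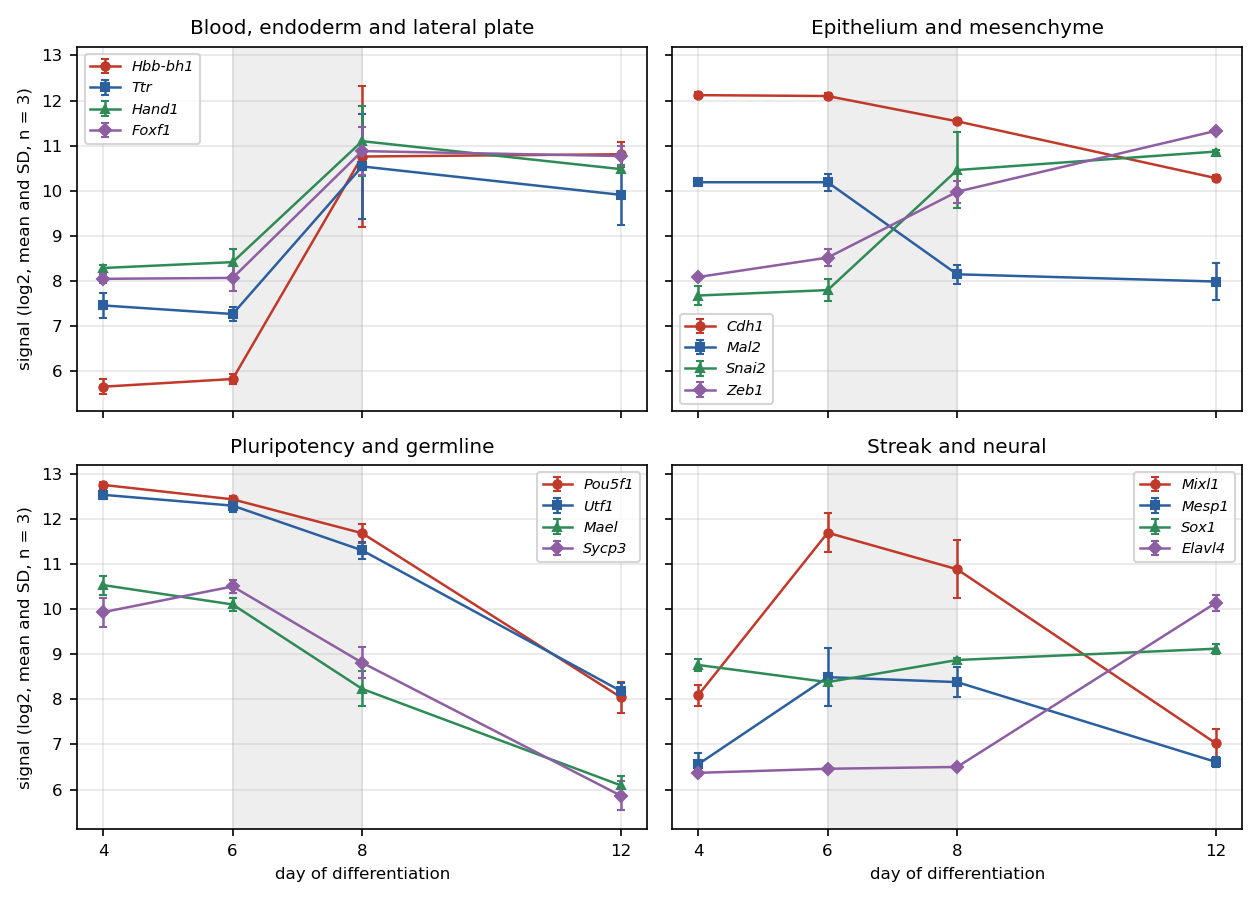
Mean signal (log2, vertical axis, bars show SD, n = 3 arrays) of 16 genes at days 4, 6, 8 and 12 of untreated culture (horizontal axis), with the interval from day 6 to day 8 shaded. Hbb-bh1, Ttr, Hand1, Foxf1 and Snai2 step up within the shaded interval and then stay level, while Pou5f1, Utf1, Mael and Sycp3 fall further by day 12.

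The arrays of days 12 and 4 share none with the comparison of days 8 and 6. At day 12, 5392 genes (27.0%) were higher and 6018 (30.2%) lower than at day 4. Of the genes higher at day 8 than at day 6, 1507 were also higher over the longer interval, which is 42.5% of the first set and 27.9% of the second, and 637 were lower. Of those lower at day 8, 2134 were also lower, 58.4% and 35.5% of the sets, and 588 were higher. Among the 313 genes that changed by 2-fold or more from day 6 to day 8, 291 had the same sign from day 4 to day 12. Across the 19938 genes, which are not independent of each other, the 2 differences had a Pearson correlation of 0.52.

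The same interval was also measured in EBs under FK506 and cyclosporin A. The day 6 to day 8 changes of the 2 cultures had a Pearson correlation of 0.83 across the 19938 genes, which does not measure whether their sizes were equal. Of the 313 genes with a 2-fold change in untreated EBs, 308 had the same sign in treated EBs. In treated EBs the day 8 signal was higher for 3348 genes (16.8%) and lower for 4921 (24.7%). The sets shared 1959 higher genes (55.3% of the untreated and 58.5% of the treated set) and 3103 lower genes (84.9% and 63.1%), and 19 and 13 genes were called in opposite directions. A test of the difference between the changes called 36 genes (0.181%) with a more positive change in untreated EBs and 44 (0.221%) with a more negative one. With the replicate number as a block the counts were 83 and 120, and with only the 12 arrays of both cultures at these days they were 1 and 2.

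Of the 15 largest untreated rises, Foxf1 was called for a change that differed from that under the drugs. Postn, at 2.74 in untreated and 5.54 in treated EBs (difference -2.80, adjusted p = 0.0762), was called with the replicate number as a block (adjusted p = 0.0334) and without day 8 replicate 1 (-3.6, adjusted p = 0.00346), and Hand1 was called under 1 omission (lowest adjusted p = 0.0494). The treated Foxf1 arrays read 11.81, 11.40 and 11.74 at day 8, against 11.31, 9.88 and 11.08 at day 6, a change of 0.89 in treated EBs beside 2.81 in untreated EBs (difference 1.92, SE 0.38, adjusted p = 0.0269). All 3 treated day 6 arrays lay above all untreated day 6 arrays. Tbx4, the allantois factor, showed the reverse and the largest difference. Its treated arrays read 11.88, 11.05 and 12.05 at day 8, against 8.27, 7.90 and 8.13 at day 6, a change of 3.56, beside 0.61 in untreated EBs, whose arrays read 9.04, 8.13 and 9.18 at day 8, against 8.16, 8.20 and 8.17 at day 6 (difference -2.95, SE 0.34, adjusted p = 0.000305). The untreated groups overlapped for Tbx4, while the treated groups were more than 2 units apart. Sema3a, Zic1 and Fgf15 rose by 1.65, 1.25 and 1.10 in untreated EBs, beside 0.11, 0.10 and -0.27 in treated EBs. Mesp1, Fgf10 and Usp18 differed by -0.11, 0.83 and 0.34 in untreated EBs, beside -2.15, -0.98 and -1.44 in treated EBs. Hoxc8, Dab2 and Apob differed by 1.12, 0.90 and 0.86 in untreated EBs, beside 2.66, 2.49 and 2.61 in treated EBs. Of the genes called here for this difference, Tbx4 and Dab2 were called under each omission of 1 untreated array (Dab2 not with the compared groups only, adjusted p = 0.115), and the calls of the others ended without day 8 replicate 3 (adjusted p 0.0523 to 0.149), most of them also without day 6 replicate 2.

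**Figure D5:**
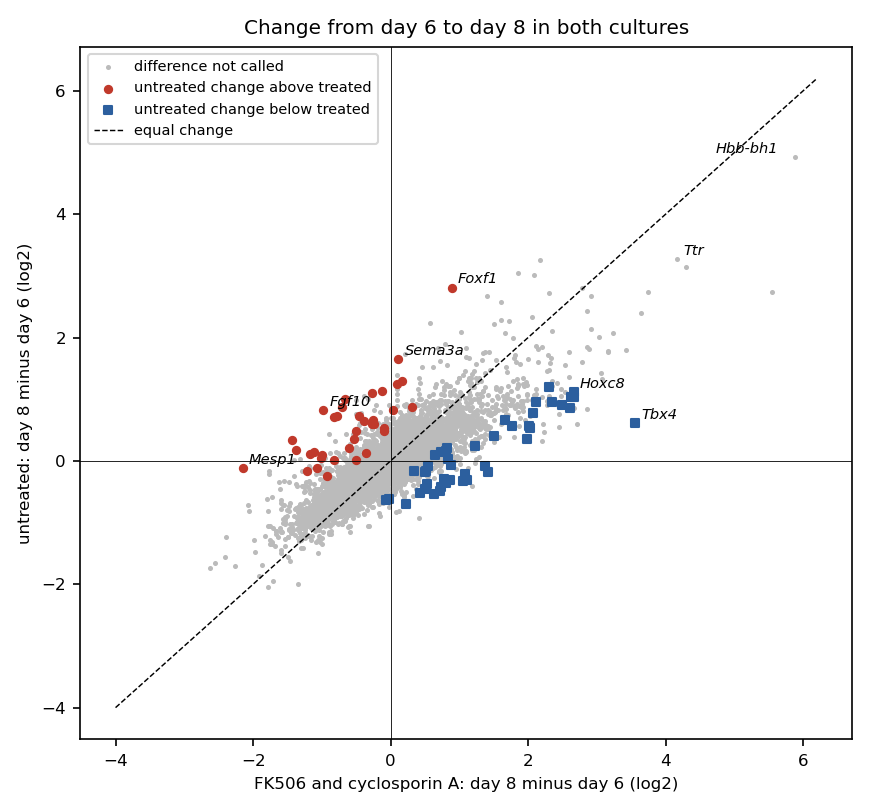
Day 8 minus day 6 difference (log2) of each of the 19938 genes in untreated EBs (vertical axis) against EBs under FK506 and cyclosporin A (horizontal axis), with genes whose changes differ in red (more positive in untreated EBs) and blue (more negative). Most genes lie along the dashed line of equal change, with Foxf1 above it and Tbx4 farthest below it.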

How the data were processed

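Total RNA of embryoid bodies was hybridised to Affymetrix Mouse Gene ST 1.0 arrays, 1 per sample. The deposited values are log2 signals that the authors made with RMA in Affymetrix Expression Console, per the submitters' processing notes. The log2 scale was taken from the values. Software versions and the build were not given in the sources used here. Annotation of the platform gives 1 symbol to 21789 of 35556 probe sets and more than 1 to 1621, it leaves out 12146, and 21698 matched RefSeq with 0 symbols changed. For 999 genes with several probe sets the one with the highest mean was used. limma 3.58.1 (R 4.3.3) was fitted to all 24 arrays with 1 mean per group (16 residual degrees of freedom), with Benjamini-Hochberg adjustment over 19938 genes and a threshold of 0.05. Tables and figures were made in Python 3.11.15 with pandas 2.3.3, numpy 2.4.6 and matplotlib 3.10.9, and the fit was tested on simulated data. With 3 arrays a group, their number limits the precision.

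The labels describe 3 independent experiments. Same-numbered day 8 and day 6 arrays deviated together from their group means (r = 0.202, 0.157 and 0.156), and other pairs did not (-0.128 to -0.018). Deviations cancel within a group, so the negative values of the other pairs add no evidence of their own. On the small positive values the replicate number was taken to pair the samples. A fit with it as a block was an alternative to the main fit, which leaves the pairing out. Other alternatives were omission of each array, quantile normalization, median centring, cyclic loess, a filter on low signal, mean of probe sets, every probe set, an intensity trend, array weights, fits of the compared groups only, and a 2-fold threshold. Cyclic loess, and the compared groups with the block, were chosen after seeing the data.

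The comparison, its members and the gene lists were chosen with earlier results of these data known. Genes were named by these rules: the 15 largest rises and falls without overlap, passing over clone names, small RNAs, receptor families and pseudogenes; up to 6 called members of each list with the smallest p, its extremes and counterexamples; cell type markers; the 6 largest each way in the contrasts with days 6 and 12 and with treated cultures; and fixed genes. Alas2, Alb, Bmpr2, Cer1, Ednrb, Esrp1, Fgb, Grhl2, Hbb-y, Hk1, Klf4, Krt18, Lama5, Ldha, Nefl, Nid2, Nppa, Rarb, Runx1, Smad1, Smad5, Smad6, Sohlh2, Sox10, Stag3, Tdrd12, Tfap2a, Tfrc, Twist1 and Vegfa fell outside them and were chosen after their values were seen. A summed marker signal is the log2 of the markers' summed linear signals. Results of the trophoblast list were 4 of 14 higher and 1 lower (28.6% and 7.14%, beside 17.8% and 18.3% of all genes).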

Additional observations from a re-analysis of the deposited data

Results flagged for a closer look

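The change between day 8 and day 6 differed between untreated EBs and EBs under FK506 and cyclosporin A for 20 named genes, by limma's test of the difference between both changes. Values in brackets are that difference, untreated minus treated, on the log2 scale.

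The change was more positive in untreated EBs for Foxf1 (1.92, from 2.81 in untreated and 0.89 in treated EBs, adjusted p = 0.0269), Mesp1 (2.04, from -0.11 in untreated and -2.15 in treated EBs, adjusted p = 0.0231), Fgf10 (1.80, from 0.83 in untreated and -0.98 in treated EBs, adjusted p = 0.0209), Bmper (1.54, from 0.71 in untreated and -0.83 in treated EBs, adjusted p = 0.021) and Cfc1 (1.67, from 1.01 in untreated and -0.66 in treated EBs, adjusted p = 0.0494). It was also more positive for Zic1 (1.15, from 1.25 in untreated and 0.10 in treated EBs, adjusted p = 0.0297), Sema3a (1.54, from 1.65 in untreated and 0.11 in treated EBs, adjusted p = 0.0223) and Fgf15 (1.38, from 1.10 in untreated and -0.27 in treated EBs, adjusted p = 0.0223), for Lgr5 (1.25, from 1.13 in untreated and -0.12 in treated EBs, adjusted p = 0.0494) and Nkd1 (0.90, from 0.66 in untreated and -0.25 in treated EBs, adjusted p = 0.0278), and for Usp18 (1.78, from 0.34 in untreated and -1.44 in treated EBs, adjusted p = 0.0494) and Vstm2b (1.59, from 0.88 in untreated and -0.71 in treated EBs, adjusted p = 0.021).

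The change was more negative in untreated EBs for the allantois factor Tbx4 (-2.95, from 0.61 in untreated and 3.56 in treated EBs, adjusted p = 0.000305). It was more negative for Hoxd8 (-1.16, from 0.96 in untreated and 2.12 in treated EBs, adjusted p = 0.0401), Hoxc8 (-1.54, from 1.12 in untreated and 2.66 in treated EBs, adjusted p = 0.0223) and Hoxa9 (-1.65, from 0.35 in untreated and 1.99 in treated EBs, adjusted p = 0.021), for Dab2 (-1.59, from 0.90 in untreated and 2.49 in treated EBs, adjusted p = 0.00862) and Apob (-1.75, from 0.86 in untreated and 2.61 in treated EBs, adjusted p = 0.0434), and for Tfec (-1.65, from 1.03 in untreated and 2.67 in treated EBs, adjusted p = 0.0209) and Cd34 (-1.60, from -0.18 in untreated and 1.42 in treated EBs, adjusted p = 0.0358). Tbx4 and Dab2 were called without any 1 untreated array, with highest adjusted p-values of 0.00174 and 0.0463. When only the groups compared were fitted, Tbx4 (adjusted p = 0.0242) and Zic1 (0.0204) were called and the other 18, Dab2 (0.115) among them, were not. Apart from Tbx4 and Dab2, each of the 18 lost its call without at least 1 of them, with highest adjusted p-values of 0.0644 (Fgf10) to 0.173 (Lgr5 and Usp18).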

How the results depend on the processing

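The counts for day 8 against day 6 (3544 higher, 3653 lower) were 3788 and 3837 with the replicate number as a block and 3209 and 3108 after cyclic loess. They were 1897 higher with genes above the 40th percentile of signal, and 186 and 127 at 2-fold. Without any 1 array they ranged over 1940 to 3476 and 2543 to 3336. Against the mean of days 6 and 12 (2333 and 2528), the block gave 2533 and 2704, the filter 1250 higher, the 2-fold threshold 70 and 89, and omissions 941 to 2263 and 1560 to 2391. The difference between untreated and treated changes (36 and 44) moved most. It gave 680 and 710 with array weights, 83 and 120 with the replicate block, 1 and 2 with the compared groups only, 14 and 9 with these and the block, 21 and 26 at 2-fold, 67 lower with quantile normalization, 76 lower with median centring, 72 lower with cyclic loess, and 4 to 104 and 6 to 144 over omissions. The cause was not tested.

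Of 267 named genes called between day 8 and day 6, the block changed 0, cyclic loess ended 13, quantile normalization 16, and omissions 12 (day 8 replicate 2) to 39 (day 8 replicate 1). The block added calls for 8 genes, among them Fst, Vcam1 and Itga6, and changed no other call of a named gene in that comparison. No named gene called in that comparison changed sign under the alternatives run, whereas some uncalled genes near 0 did, such as Bmp8b (0.04, but -0.05 without day 8 replicate 2). Replicate number limits precision, and dim signals have no detection calls.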
